A study of Homo sapiens with 2 samples.

Results

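The H/ACA small nucleolar RNAs (SNORA genes) and the small Cajal body RNAs (SCARNA genes) were examined in U937 cells that carried TWIST-1 or the empty vector. Members were all genes with an array entry annotated with a single symbol that starts with SNORA or SCARNA followed by a digit, and each gene was represented by its brightest entry. This gave 85 of the 22465 genes measured, of which 64 were SNORA and 21 were SCARNA genes, from 92 entries.

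U937 is an established human cell line of monocytic type, labelled acute myeloid leukemia by the submitters. The cells labelled TWIST-1 received the TWIST-1 cDNA in a lentiviral vector that also encodes green fluorescent protein, and the control cells received that vector without the cDNA. The methods describe sorting of transduced cells for that fluorescence. Total RNA of each was read on 1 Affymetrix Human Transcriptome Array 2.0. With 1 array per condition there was no replicate error and no test, and what TWIST-1 did cannot be told apart from how the cultures or the arrays differed otherwise.

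H/ACA RNAs fold into hairpins that pair with a target RNA and place a uridine in the active site of dyskerin, the enzyme of the H/ACA particle, which turns it into pseudouridine. SNORA genes mostly guide this modification on ribosomal RNA in the nucleolus, whereas scaRNAs carry H/ACA boxes, C/D boxes or both and guide modification of spliceosomal RNAs in Cajal bodies. Most human members have no promoter of their own and are cut out of the introns of a containing gene, often one that encodes a ribosomal protein, a translation factor or a noncoding RNA.

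Some such containing genes start transcription at a C followed by a run of pyrimidines, the feature of mRNAs with a terminal oligopyrimidine tract. The start sites of 5 containing genes named in the results are shown as examples, and those of other containing genes named further on are not. These 5 do not show the share among containing genes, which is given below. Each sequence runs 5′ to 3′ along the transcribed strand, from 20 bases before the start to 10 bases from it, with the unbroken pyrimidine run at the start in capitals (RefSeq, GRCh38.p14).
RPL12, containing SNORA65, chr9:127451397-127451426, minus strand: cttgtccgcgcgatttccggCCTCTCggct
TPT1, containing SNORA31, chr13:45341174-45341203, minus strand: tggggagcggctgagtcggcCTTTTCCgcc
TOMM20, containing SNORA14B, chr1:235128828-235128857, minus strand: ggaagtggcgtgtgctcggcCTTTCTgtgt
IPO7, containing SNORA23, chr11:9384632-9384661, plus strand: gggccttggcgcttctctttCCTTTCgcgc
SNHG8, containing SNORA24, chr4:118278742-118278771, plus strand: tgccgaaggcctcggcctttCacattcggg
RPL12, TPT1, TOMM20 and IPO7 start at a C with at least 5 pyrimidines in a row, and SNHG8 starts at a lone C. The pattern sought was a C at the start followed only by C or T, at least 5 bases in all, on the transcribed strand alone. It was found in 14 of 72 containing genes with a listed promoter (19.4%). Over all 27305 listed promoters the share was 4.04%. A filter by chromosome was applied to the 72 and not to the 27305, so these shares do not cover like sets. The pattern is a match of letters and not a measured start in U937 cells.

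The values are log2 signals as deposited, after quantile normalization by the authors, and log2 ratios are TWIST-1 minus vector. Signals of different genes depend on their probes and do not rank their abundance. TWIST1 itself had a log2 signal of 4.34 on the TWIST-1 array and 4.13 on the vector array, a log2 ratio of 0.21, which is under the study's 1.2-fold threshold (a log2 ratio of 0.26). Which parts of the transcript this entry reads was not examined, so it does little to check the label. The study examined its stable TWIST-1 lines by real-time PCR and Western blot, and those measurements are not part of these data. Its gene calls also used a P value cutoff, which was not applied here. Of 12 monocytic and myeloid markers 10 were measured and all lay above the background floor defined next, with LYZ at 11.4 on the TWIST-1 array and 11.6 on the vector array, whereas CD14 stood at 3.94 and 3.90. The median log2 ratio of all genes was 0.04.

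Signal above background was found for most but not all members. The floor was the median log2 signal of the array's 23 background probe sets, 2.72, and 80 of the 85 members lay above it (94.1%), against 86.8% of all genes. SNORA15, SNORA58, SCARNA14, SCARNA15 and SCARNA23 lay below it on the mean of both arrays. The background sets spread widely, between 1.83 and 11.1 on the TWIST-1 array and between 1.74 and 11.0 on the vector array, and are graded by the GC content of their probes. With their upper quartile of 5.83 as the floor, 40 members lay above it. The GC content of the members' probes is not in the files, and 7 of 8 measured markers of lymphoid, erythroid, epithelial and stromal cells also lay above 2.72, so passing this floor does not by itself show expression. The background sets themselves had a median log2 ratio of 0.08, with 22 of 23 above 0, and the part of this in the members' ratios was not tested.

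**Figure D1:**
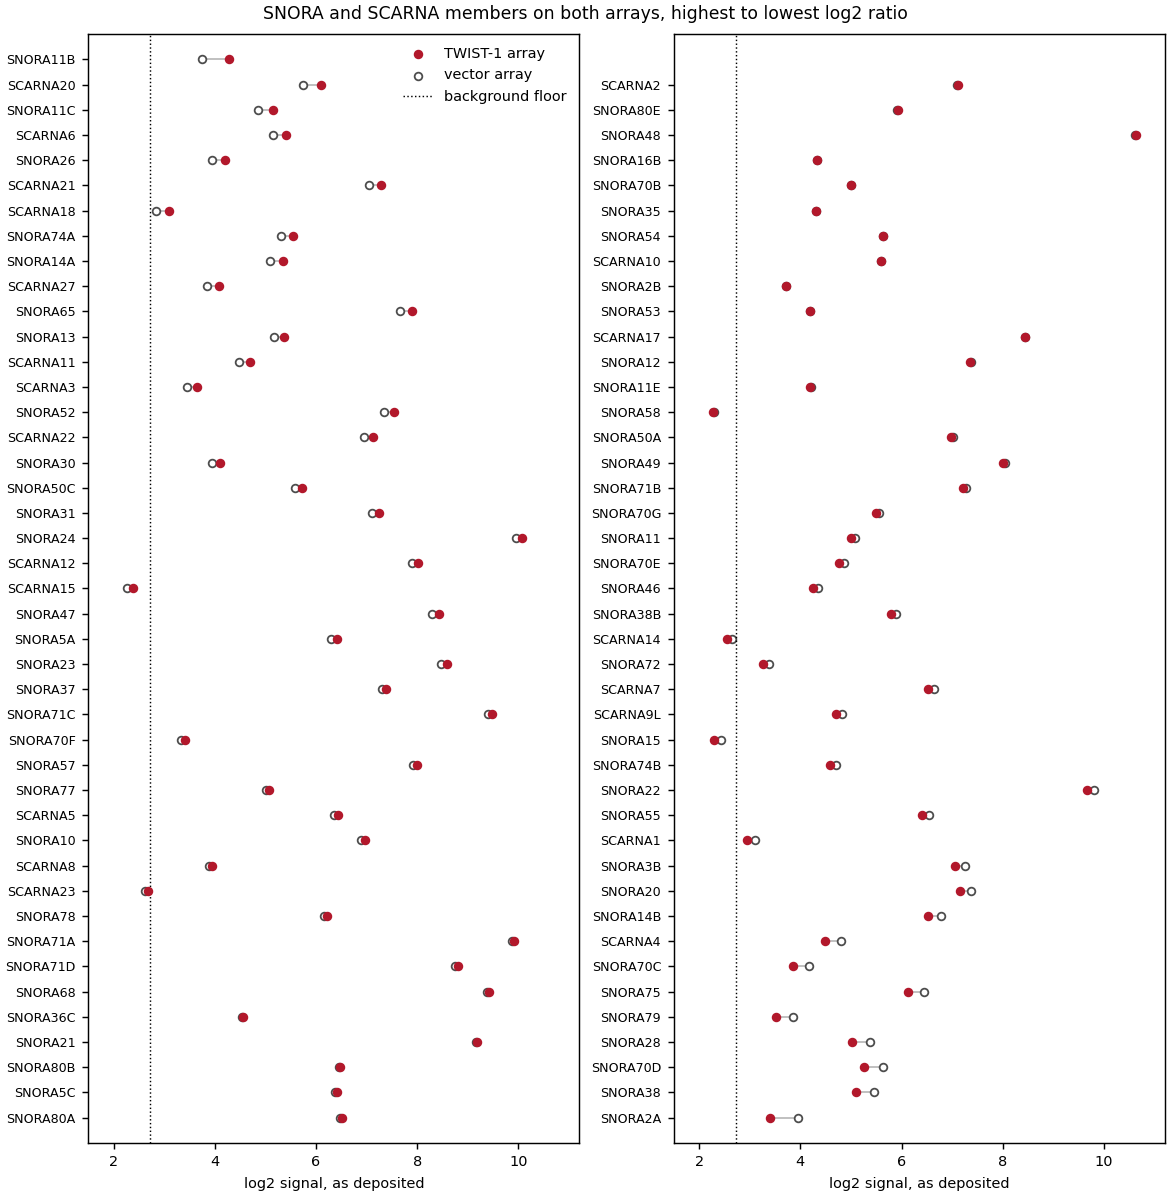
Log2 signal of each of the 85 members (horizontal axis, as deposited) on the TWIST-1 array (filled red) and on the vector array (open), with members ordered from the highest log2 ratio at the top left to the lowest at the bottom right and the background floor of 2.72 dotted. The pairs of points lie close together for most members, and SNORA11B and SNORA2A stand furthest apart.

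Most H/ACA and Cajal body RNAs had similar signals on both arrays, and a minority differed by 1.2-fold or more. At that threshold 4 members were higher on the TWIST-1 array, which is 4.71% of the members beside 2.71% of all genes. Another 9 members were lower, which is 10.6% of the members beside 2.85% of all genes. All 13 lay above the floor of 2.72. Of these, only SCARNA20, SNORA75 and SNORA14B also lay above the upper quartile of the background sets, 5.83. Their mean log2 signals were 5.92, 6.28 and 6.65. The largest difference was 1.48-fold, for SNORA2A. The median log2 ratio of the members was 0.02, with 50 above 0, 32 below 0 and 3 at 0, and their middle 50% ran from -0.10 to 0.12, beside -0.06 to 0.11 for all genes. Centring the ratios on the median gene gave 2 members higher and 9 lower, against 329 genes higher and 1084 lower in all.

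Among the higher members, SNORA11B gave 4.28 on the TWIST-1 array and 3.74 on the vector array. Its log2 ratio of 0.54 was rank 10 from the top of all genes. SCARNA20, a Cajal body H/ACA RNA whose known target is the U12 RNA of the minor spliceosome, gave 6.10 and 5.74, a log2 ratio of 0.36. Both stayed past the threshold under the 3 other scalings and with an offset of 16 added to the linear values, at 0.27 for SNORA11B and 0.28 for SCARNA20. SNORA11C gave 5.15 on the TWIST-1 array and 4.86 on the vector array, a log2 ratio of 0.30. SCARNA6, which carries both box types, gave 5.41 and 5.14, a log2 ratio of 0.26. SNORA11C and SCARNA6 lay just past the threshold, and under the 3 other scalings their log2 ratios were 0.23 to 0.25 and 0.21 to 0.22, short of it.

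Just short of the threshold as deposited, and higher on the TWIST-1 array, stood SNORA26, SCARNA21, SCARNA18, SNORA74A and SNORA14A. SNORA26, a guide for the large ribosomal subunit RNA, gave 4.19 on the TWIST-1 array and 3.94 on the vector array, a log2 ratio of 0.257 where the threshold is 0.263. SCARNA21, another guide for U12, gave 7.29 and 7.04, a log2 ratio of 0.25. As the scaling changed, SCARNA21 passed the threshold after loess (0.27) and after another quantile normalization (0.29). SCARNA18, a guide for the U1 RNA that defines 5′ splice sites, gave 3.09 and 2.84, close to the floor. SNORA65, a guide for the large subunit RNA, gave 7.89 on the TWIST-1 array and 7.66 on the vector array, a log2 ratio of 0.22, and passed the threshold only after another quantile normalization (0.27).

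Among the lower members, SNORA2A gave 3.39 on the TWIST-1 array and 3.96 on the vector array. Its log2 ratio of -0.56 was rank 26 from the bottom of all genes. SNORA28, which guides modification of the small ribosomal subunit RNA, gave 5.02 and 5.37, a log2 ratio of -0.35. In both the TWIST-1 array had the weaker signal. SNORA75, also a small subunit guide, gave 6.12 on the TWIST-1 array and 6.44 on the vector array, a log2 ratio of -0.32. SNORA79 gave 3.53 and 3.86, a log2 ratio of -0.34. SCARNA4, a guide for the U2 RNA that pairs with the branch point, gave 4.49 and 4.80, a log2 ratio of -0.31. These members are carried by different containing genes, given further on. SNORA14B, a small subunit guide, gave 6.52 on the TWIST-1 array and 6.79 on the vector array, and its log2 ratio of -0.27 was the smallest of the 9. SNORA70D gave 5.27 and 5.63, a log2 ratio of -0.36, and SNORA70C gave 3.85 and 4.16, a log2 ratio of -0.31. The 3 other scalings left all 9 past the threshold, whereas an offset of 16 added to the linear values left 1, SNORA70D at -0.263. Among all 22465 genes, 275 were lower with that offset, beside 641 as deposited.

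SNORA38, the remaining lower member, depends on the entry taken. The table holds 7 entries for it, on the primary assembly and on alternative haplotypes, with only 2 distinct pairs of values. The brightest pair, shared by 2 entries, was 5.09 on the TWIST-1 array and 5.46 on the vector array, a log2 ratio of -0.37. The other 5 entries, that of the primary assembly among them, gave 4.46 and 4.63, a log2 ratio of -0.17. With the primary assembly's entry 8 members were lower.

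**Figure D2:**
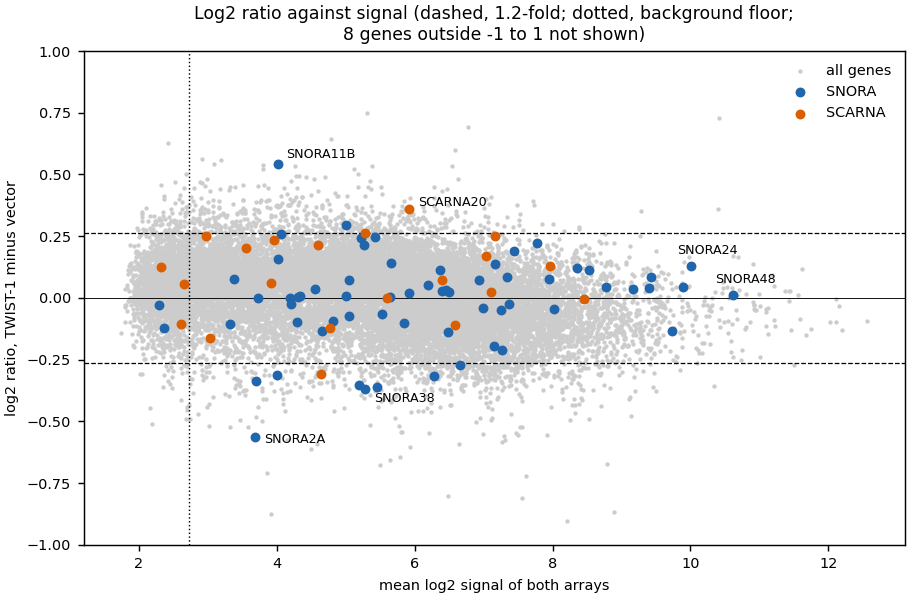
Log2 ratio, TWIST-1 minus vector, against the mean log2 signal of both arrays for all 22465 genes (grey), SNORA members (blue) and SCARNA members (orange), with dashed lines at 1.2-fold and a dotted line at the background floor. Members past the threshold have mean signals between 3.68 and 6.65, and the members with the strongest signals lie near 0.

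The 8 members with the strongest signals differed little. SNORA48, a guide for the large subunit RNA, gave 10.63 on the TWIST-1 array and 10.62 on the vector array, a log2 ratio of 0.01. SNORA24, a guide for the small subunit RNA, gave 10.08 and 9.95, a log2 ratio of 0.13. SNORA71A gave 9.92 and 9.87, a log2 ratio of 0.05. Of the 8, only SNORA22 was lower on the TWIST-1 array, with 9.67 against 9.80 on the vector array and a log2 ratio of -0.13. SNORA71C, SNORA68, SNORA21 and SNORA71D had log2 ratios between 0.03 and 0.08.

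Most members past the threshold had signals under 6. Of the 37 members at a mean log2 signal of 6 or more, 2 were past the threshold (5.41%), beside 6.19% of all genes in that range, and of the 48 under 6, 11 were (22.9%), beside 5.25% of all genes. At 8 or more there were 12 members and none past the threshold. Their median log2 ratio was 0.04, with 9 of 12 above 0. Among all 1178 genes in that range 831 were below 0, the median was -0.07, and 7 genes were higher and 79 lower. Between 6 and 8, the 25 members had a median of 0.03 and 2 lower (SNORA75 and SNORA14B), beside a median of -0.0061, 83 higher and 297 lower over 6348 genes. Between 4 and 6, where 33 members lay, 4 were higher and 5 lower, and the median was 0.0044, beside 257 higher, 167 lower and a median of 0.07 over 7604 genes. The members under 4 were 15, with 0 higher, 2 lower and a median of 0, beside 262 higher, 98 lower and a median of 0.06 over 7335 genes.

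Grouped by box type, the scaRNAs with C/D boxes alone, which guide methylation, lay closest to 0. Their median log2 signal was 7.11, beside 5.99 for both box types and 3.73 for H/ACA boxes alone. Box type thus cannot be told apart from signal level here. SCARNA9L (log2 ratio -0.12) and SCARNA27 (0.24) were in no listed box group. SCARNA2, a guide for U2, gave 7.12 on the TWIST-1 array and 7.10 on the vector array. SCARNA17, a guide for U4, gave 8.45 on each, and SCARNA7, a guide for U1, gave 6.53 and 6.64, a log2 ratio of -0.11. None of these 3 was past the threshold. Of the 4 scaRNAs with both box types, SCARNA10, a guide for U5, had the same value on both arrays, 5.59, and SCARNA12 gave 8.02 on the TWIST-1 array and 7.89 on the vector array, a log2 ratio of 0.13. SCARNA5 gave 6.43 and 6.35, and only SCARNA6 was past the threshold, with the group's median log2 ratio at 0.10.

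Of 14 scaRNAs listed with H/ACA boxes alone, 12 were measured, with a median log2 ratio of 0.15 and 9 above 0. Their median log2 signal was 3.73. Of all 7335 genes under 4, 5065 were above 0, with a median log2 ratio of 0.06. SCARNA20 was higher and SCARNA4 lower at 1.2-fold. SCARNA22, encoded within NSD2, gave 7.12 on the TWIST-1 array and 6.95 on the vector array, a log2 ratio of 0.17. SCARNA11 had a log2 ratio of 0.21, SCARNA3 of 0.20, SCARNA8 of 0.06 and SCARNA1 of -0.16. Of the 12, 3 lay below the floor (SCARNA14, SCARNA15 and SCARNA23). Over all SCARNA members the median was 0.07, beside 0.0096 for the SNORA members, a difference with no replicate error. The 173 box C/D RNAs measured (SNORD genes), which guide methylation of ribosomal RNA, had a median log2 ratio of 0.01, with 13 higher (7.51%, beside 4.71% of members and 2.71% of all genes) and 15 lower (8.67%, beside 10.6% of members and 2.85% of all genes). Of the SNORD genes, 100 lay above the floor.

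**Figure D3:**
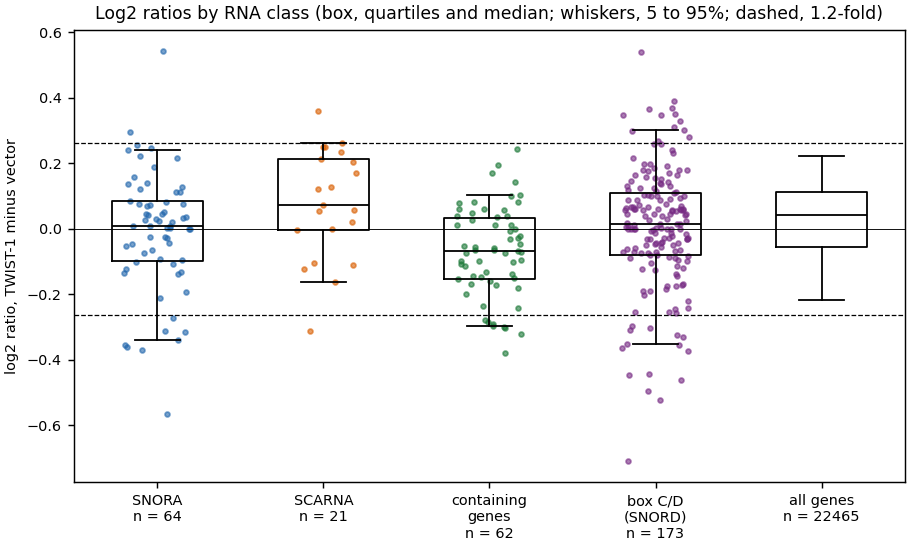
Log2 ratios, TWIST-1 minus vector (vertical axis), of SNORA members, SCARNA members, the genes that contain members, box C/D (SNORD) RNAs and all genes, with boxes at the quartiles and median, whiskers at 5% and 95%, points for single genes except in the last class and dashed lines at 1.2-fold. The medians lie between -0.07 for the containing genes and 0.07 for SCARNA, and the boxes of all 5 classes overlap.

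Copies of one RNA had similar ratios in some families and not in others. Letters in the symbols mark related copies, which can share sequence, so their probes may not separate them, and this was not tested. In the SNORA11 family the log2 ratios of 4 copies ran from -0.07 to 0.54. SNORA14A gave 5.34 on the TWIST-1 array and 5.10 on the vector array, a log2 ratio of 0.24, on the other side of 0 from SNORA14B. SNORA2B had 3.72 on both arrays, unlike SNORA2A. The 6 SNORA70 copies ran from -0.36 to 0.08. SNORA74A was at 0.25 and SNORA74B at -0.13. The 4 SNORA71 copies, guides for the small subunit RNA, lay between -0.05 and 0.08, and SNORA80A, SNORA80B and SNORA80E lay between 0.02 and 0.03.

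By position in the RefSeq annotation of GRCh38.p14, 82 of the 84 members found there lay inside another gene, 70 of them inside exactly 1. The annotation table does not give the members' strand, and RNA of an intron can come from the mature member or from the unspliced containing transcript, which these probes cannot tell apart. The 62 containing genes measured had a median log2 ratio of -0.07, with 0 higher and 8 lower at 1.2-fold and 41 below 0. Their median log2 signal was 7.06. Among all 7526 genes at 6 or more the median was -0.02 and 5.0% were lower. The 49 containing genes in that range held all 8 lower ones (16.3%), and the 8 were 12.9% of all 62.

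Of 57 members with exactly 1 containing gene, measured, 39 had a higher log2 ratio than that gene, and the median difference, member minus gene, was 0.10. This size depended on the scaling: it was 0.04 after loess and 0.03 after another quantile normalization, with 36 and 38 of the 57 pairs on that side. The median log2 signal was 5.59 over all 85 members and 7.06 over the 62 containing genes measured. Over all genes the median log2 ratio was 0.07 between 4 and 6 and -0.0061 between 6 and 8. The part of signal level in the difference between member and gene was not tested. Member and gene lay on the same side of 0 in 29 pairs. Across the 57 pairs, drawn from 51 genes on the same 2 arrays, Pearson's r was 0.19 and Spearman's rho 0.31. These describe 1 pair of arrays and are not replicates.

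Of the 13 members past the threshold, 10 had exactly 1 containing gene, measured, and 0 of those 10 genes were past it. With 12.9% of all containing genes past it, 0 of 10 is near the background and is not a result about these pairs. KANSL2, a chromatin regulator subunit that contains SNORA2A and SNORA2B, gave 6.15 on the TWIST-1 array and 6.12 on the vector array. EIF5, a translation initiation factor containing SNORA28, gave 8.40 and 8.38. NCL, which encodes nucleolin and contains SNORA75, gave 9.53 and 9.62, a log2 ratio of -0.10. SNORA2A, SNORA28 and SNORA75 are named for passing the threshold, which their genes did not, so their larger differences follow from that choice. SNORA2B had a log2 ratio of 0, beside 0.04 for KANSL2. DGLUCY, containing SNORA11B, had a log2 ratio of 0.01, PRRC2A, containing SNORA38, of -0.06, GTF2A1, containing SNORA79, of -0.13 and ZNF157, containing SNORA11C, of 0.08. TOMM20, a mitochondrial import receptor whose start site is shown above and one of 2 genes around SNORA14B, gave 9.23 on the TWIST-1 array and 9.40 on the vector array, a log2 ratio of -0.17.

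The 8 containing genes that were lower held 8 members, of which 6 had log2 ratios below 0 and 0 were past the threshold, beside 15.3% of all members, again a count near the background. They are named here after their values were seen. ATP6V0E1, a subunit of the vacuolar proton pump, gave 9.31 on the TWIST-1 array and 9.69 on the vector array, a log2 ratio of -0.38, while its member SNORA74B was at -0.13. TMEM167A had a log2 ratio of -0.29 and its member SCARNA18 one of 0.25. IPO7, a nuclear import receptor with a pyrimidine start, was at -0.30 and its member SNORA23 at 0.11. TMEM167A and IPO7 were the pairs with opposite signs. KPNA4, another import factor, was at -0.30 with SCARNA7 at -0.11, and the others were CCT6P1 (SNORA22), RAP1B (SNORA70G), EIF1AX (SCARNA9L) and NOL11 (SNORA38B).

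**Figure D4:**
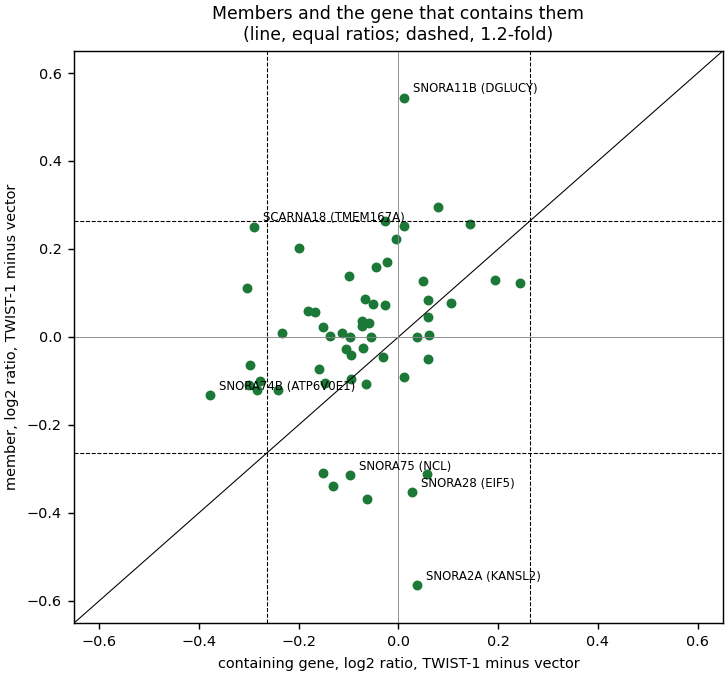
Log2 ratio, TWIST-1 minus vector, of 57 members (vertical axis) against that of the 1 measured gene containing each (horizontal axis), with the line of equal ratios and dashed lines at 1.2-fold. Of the points, 39 lie above the line, and no point lies past 1.2-fold on both axes.

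Of 6 genes that contain more than 1 member, KANSL2, KHDC4 and ATG16L1 held the pairs furthest apart. KHDC4 (log2 ratio -0.15) contains SCARNA4 at -0.31 and SNORA80E, a small subunit guide, at 0.02, with 5.93 on the TWIST-1 array and 5.91 on the vector array. ATG16L1, an autophagy gene at -0.03, contains SCARNA5 at 0.07 and SCARNA6 at 0.26. The others held members closer together: CNOT1 contains SNORA46 at -0.10 and SNORA50A at -0.04, TBRG4 contains SNORA5A at 0.11 and SNORA5C at 0.03, and SNHG17, a noncoding host at 0.06, contains the 4 SNORA71 copies. The noncoding hosts SNHG8 and DANCR were both higher on the TWIST-1 array short of the threshold: SNHG8 had a log2 ratio of 0.19 beside 0.13 for SNORA24, and DANCR one of 0.14 beside 0.26 for SNORA26. TPT1, which encodes a translationally controlled tumor protein, was at -0.10 with SNORA31 at 0.14 (7.24 on the TWIST-1 array, 7.10 on the vector array), and RPL12, a ribosomal protein gene, was near 0 with SNORA65 at 0.22.

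The proteins that bind H/ACA RNAs showed no difference past 1.2-fold. NOP10 gave 9.16 on the TWIST-1 array and 9.17 on the vector array, NHP2 gave 6.46 and 6.38, and GAR1 gave 5.52 and 5.67, a log2 ratio of -0.16. DKC1, which encodes dyskerin, shares its entry with other symbols and was not used. Of 7 assembly and maturation genes none was past the threshold as deposited, and SHQ1, a dyskerin chaperone, was lowest at -0.26, passing it at -0.30 to -0.29 under the other scalings.

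Of 10 Cajal body genes measured, 1 was lower, beside 2.85% of all genes, and 1 gene is not a result about the list. COIL, which encodes the Cajal body scaffold coilin, gave 5.91 on the TWIST-1 array and 6.20 on the vector array. Its log2 ratio was -0.29, and -0.23 with the offset of 16, short of the threshold. WRAP53, whose protein brings scaRNAs and telomerase RNA to Cajal bodies, was at 0.14. Among 12 pseudouridine synthases that work without guide RNAs, 1 was lower, again beside 2.85% of all genes. This was PUS7L at -0.28, which stood at -0.20 with the offset, short of the threshold. PUS3 stood at -0.25 and passed the threshold at -0.31 to -0.29 under the other scalings, and PUS1 (0.17) and RPUSD2 (0.18) were the highest. All 6 box C/D protein genes measured were within 1.2-fold, with a median of -0.10.

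Of 6 genes listed for intron release and RNA trimming, 3 were lower, beside 2.85% of all genes and 5.0% of genes at a log2 signal of 6 or more. XRN2, a nuclear exonuclease that trims 5′ ends, gave 8.16 on the TWIST-1 array and 8.48 on the vector array, a log2 ratio of -0.32, and was short of the threshold at -0.261 after another quantile normalization. XRN1, its relative, which acts mainly in the cytoplasm, gave 6.39 and 6.69, a log2 ratio of -0.30. With the offset of 16 it was short of the threshold at -0.258. DIS3, an exosome nuclease, gave 7.26 and 7.54, a log2 ratio of -0.29. All 6 lay below 0, with a median of -0.25, while the members had a median of 0.02. The median log2 signals differed, 7.43 for the list and 5.59 for the members. All genes between 6 and 8 had a median log2 ratio of -0.0061. The list was chosen with earlier results of these data known.

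TERC, the telomerase RNA, which ends in an H/ACA domain, gave 7.19 on the TWIST-1 array and 7.16 on the vector array, a log2 ratio of 0.03. RMRP, the RNA of a ribosomal RNA processing enzyme, gave 10.78 and 10.61, a log2 ratio of 0.17, which was 0.28 and past the threshold after loess. Among other small RNA classes, which include many pseudogene copies, 5 of 216 RNU genes were higher and 16 lower, with a median of -0.03. Of 56 RNY genes, 2 were higher and 8 lower, with a median of -0.06. Over all genes 2.71% were higher and 2.85% lower. Only 138 of the RNU genes and 29 of the RNY genes lay above the floor.

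Another 39 entries list SNORA or SCARNA symbols together with other symbols, and 45 such symbols, SNORA73A, SNORA73B, SNORA63, SNORA7A, SNORA7B, SNORA64 and SCARNA9 among them, occur only there. They were not counted as members and no value was assigned to them.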

How the data were processed

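Total RNA of U937 cells carrying TWIST-1 or the empty vector was hybridised to 1 Affymetrix Human Transcriptome Array 2.0 each, and samples were grouped by their labels. The values deposited are log2 signals that, per the methods, were quantile-normalized. Affymetrix Expression Console is credited in the submitters' processing notes. Its version, the summarisation and the background correction were not given in the sources used here. Whole-transcript labelling does not separate a small RNA from a longer RNA that holds its sequence.

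Genes were named from entries with 1 symbol, and the brightest entry per gene was used. Log2 ratios were TWIST-1 minus vector. Members and gene lists were chosen with earlier results of these data known. Named were, above the floor, the 8 highest and 8 lowest members, every member past 1.2-fold, the 8 brightest members, listed scaRNAs and other listed names, the H/ACA core proteins, the 2 highest and 2 lowest genes of each list, and containing genes. Positions and start sites came from RefSeq tables of GRCh38.p14, and 1 item is not reported here. Alternatives were centring on the median gene, loess (span 0.7, 3 iterations), another quantile normalization, filters and floors on dim genes, all entries of a gene, an offset of 16 and stricter folds. The number of arrays limits the precision. Counting at the threshold was tested on simulated data with shifts larger than those of most members called and noise that did not depend on signal. That test therefore does not check the members' calls. Scaling used limma 3.58.1 in R 4.3.3, and the rest used Python 3.11.15 with numpy 2.4.6, pandas 2.3.3 and matplotlib 3.10.9.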

Additional observations from a re-analysis of the deposited data

How the results depend on the processing

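No paired analysis was possible because each condition had 1 array. The count of members at least 1.2-fold higher, 4 as deposited, was 2 after centring, 2 with genes under the median level left out, 2 with an offset of 16, and 0 at 1.5-fold and at 2-fold. The count lower, 9 as deposited, was 5 at or above the median level, 1 with the offset, and 0 at 1.5-fold and at 2-fold. Over all 22465 genes, 609 were higher and 641 lower as deposited. At or above the median level, where 51 members lay, 186 genes were higher and 475 lower. With the offset 83 genes were higher and 275 lower. Counts over all genes at 1.5-fold and 2-fold were not taken. The median log2 ratio of the members, 0.025, was -0.017 after centring, 0.0099 after loess and 0.0096 with each entry as its own unit. For SNORA it was 0.0096 as deposited, -0.032 after centring, -0.0094 after loess, -0.0051 after another quantile normalization, 0.016 above the floor and 0.031 at or above the median level. For SCARNA it was 0.073, and 0.031 after centring. For box C/D RNAs it was 0.015, and -0.027 after centring, 0.0023 after loess, 0.00099 after another quantile normalization, -0.030 above the floor and -0.030 at or above the median level. For containing genes it was -0.066, and -0.108 after centring, -0.039 after loess and -0.036 after another quantile normalization. The difference of member minus containing gene, 0.099, was 0.044 after loess and 0.032 after another quantile normalization, settings chosen after seeing the data. Members above the floor numbered 80, and 40 with the upper quartile of the background sets and 42 with the 95th percentile of the ERCC control sets, 5.62. Apart from the construction of centring, filters, offset and stricter folds, the cause of these shifts was not tested. The signs of the medians of the members, SNORA and box C/D RNAs thus turned under at least 1 setting, and they lie within 0.04 of 0. Of the 13 members past the threshold, 11 stayed past it under all 3 other scalings.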
